A study of Mus musculus with 6 samples.

Results

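Integrins are receptors that tie cells to the matrix around them. The genes described here are the integrin genes characteristic of smooth muscle, fibroblasts and skeletal muscle: the alpha subunit genes Itga1, Itga5, Itga7, Itga8, Itga9 and Itga11, the beta subunit genes Itgb1, Itgb3 and Itgb5, and Itgb1bp2, which encodes melusin, a protein of striated muscle that binds the cytoplasmic tail of the beta 1 subunit. They were chosen by name, with earlier results of these data known. All 10 were found among the 26018 genes of the deposited table and passed the filter on low reads. Bulk RNA sequencing measured them in whole uteri taken from female mice at 6 weeks, matched for body weight. The control group held 3 animals with floxed Tcf21 (Tcf21f/f), and the other group held 3 conditional knockouts (cKO), in which Tcf21 was deleted (Tcf21d/d), 1 library per animal and without treatment. The labels name neither the Cre driver nor the cells in which Tcf21, a transcription factor gene of mesenchymal cells, was deleted. The comparison asked which genes may lie downstream of TCF21 in uterine development.

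Each integrin is a pair of 1 alpha and 1 beta subunit, and the pair decides which matrix protein is bound. Subunits α1 and α11 with β1 bind collagen, α5β1 binds fibronectin, α7β1 binds laminin, α8β1 binds nephronectin and other proteins with an RGD sequence, and α9β1 binds tenascin-C among others, while β3 and β5 pair with αv and bind vitronectin. Inside the cell, talin and kindlin switch the receptor on, and the complex of integrin-linked kinase, PINCH and parvin, together with filamin and alpha-actinin, joins it to actin. In smooth muscle such adhesions form the dense plaques through which contractile force reaches the matrix.

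The libraries held between 14584450 and 16579573 reads on genes. Tcf21 itself was at 341, 152 and 144 normalised reads in control replicates 1 to 3 and at 26.0, 0 and 0 in the cKO replicates, where 0 reads allow up to 2.93 and 3.31 (log2 fold change -6.03, limma adjusted p = 0.0765). Across all genes tested, 145 were lower and 45 higher in the knockouts (limma, p under 0.05 after Benjamini-Hochberg adjustment), and 119 and 12 when libraries were scaled to total reads. Skeletal muscle genes took 3.14 to 6.13% of reads in controls and 6.48 to 9.20% in cKO libraries. The 12 listed smooth muscle genes took 1.23 to 1.77% and 0.515 to 0.689%. Some libraries stood apart: control replicate 1 held 1.44% of its reads on 10 liver genes (at most 0.0109% elsewhere) and 23.8% on mitochondrially encoded genes (8.10 to 13.7% elsewhere), and control replicate 3 held 0.0462% on 10 genes of autonomic and enteric neurons (at most 0.00809% elsewhere). Markers of the uterine epithelium made up 0.0572, 0.0193 and 0.00598% of the reads of control replicates 1 to 3, and 0.00412 to 0.00962% in cKO libraries, and the epithelial transcription factor gene Foxa2 had no read in control replicate 3 or in any cKO library. In bulk tissue, fewer cells of a type and less RNA per cell cannot be told apart.

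RefSeq promoter sequences (GRCm38.p6, 250 bases before to 50 after the start of transcription) were found for 7 of the 10 genes. They are shown because TCF21 belongs to the basic helix-loop-helix factors, which bind E-box sequences, and because smooth muscle genes often carry CArG boxes, the sites of serum response factor. The E-box CAGCTG, which reads the same on both strands, was present in 4 of the 7 promoters and in 16.3% of all 32851 promoters of this length. It stood in those of Itga1, Itga5 and Itga9, which had lower mean levels in the cKO uteri, and in that of Itgb5, which had nearly equal means. It was absent from those of Itga8 and Itgb1, which also had lower means, and from that of Itga11. The motif is in capitals in these windows, each written 5′ to 3′ on the strand of its gene:
Itga1 (chr13:115102112-115102137, minus strand): ccattctgcgCAGCTGgacacaggaa
Itga9 (chr9:118711654-118711679, plus strand): gcaacggtttCAGCTGcctacaatcc
Itga5 (chr15:103366747-103366772, minus strand): caccggcctcCAGCTGgggccggagc
Itgb5 (chr16:33829533-33829558, plus strand): acaagtgggtCAGCTGtgacagccac

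The motif began 163 bases before the start site in Itga1, 28 before it in Itga9, 122 before it in Itgb5 and 29 past it in Itga5. The start site that RefSeq gives for Itga9 lies within the gene and not at its 5′ end in GENCODE. On either strand, no CArG box was found in the 7 promoters, against a share of 1.63% of all promoters. A match of this kind is a description of letters and not a binding site. The 2 genes with the largest decreases in the cKO mean, Itga1 and Itga8, are shown in full, with CAGCTG in capitals where it occurs. The Itga8 window has no CAGCTG.
Itga1 promoter (chr13:115101915-115102214, minus strand): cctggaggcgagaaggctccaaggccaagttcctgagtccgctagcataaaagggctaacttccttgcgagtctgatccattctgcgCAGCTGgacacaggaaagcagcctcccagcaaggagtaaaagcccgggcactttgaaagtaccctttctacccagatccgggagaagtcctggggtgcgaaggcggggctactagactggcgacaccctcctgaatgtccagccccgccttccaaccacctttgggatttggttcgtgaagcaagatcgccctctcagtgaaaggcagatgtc
Itga8 promoter (chr2:12301895-12302194, minus strand): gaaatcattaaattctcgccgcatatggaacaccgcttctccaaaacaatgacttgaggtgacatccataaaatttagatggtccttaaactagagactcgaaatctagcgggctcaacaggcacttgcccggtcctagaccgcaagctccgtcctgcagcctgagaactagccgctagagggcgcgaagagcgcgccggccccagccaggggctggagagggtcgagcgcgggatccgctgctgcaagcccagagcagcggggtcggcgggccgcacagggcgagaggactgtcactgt

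Of the 10 integrin genes, limma called 1 lower, Itga1, and none higher. Of all 16314 genes tested, 0.889% were called lower, 0.276% higher and 1.16% in either direction. In 5 genes (Itga1, Itga5, Itga9, Itgb1 and Itgb3) all 3 cKO libraries lay below all 3 controls, a separation shown by 10.5% of all genes tested. None of the 10 had all cKO libraries above the controls, as 9.04% of all genes did. At an unadjusted p under 0.05, 5 were lower (7.6% of all genes) and 1, Itgb1bp2, was higher (6.11%). The median log2 fold change was -0.56 over the 10 genes and 0.0020 over all genes. The authors' deposited table lists 5 of the 10 as lower at an adjusted p under 0.05 (Itga1, Itga8, Itga9, Itgb1 and Itgb3) and none as higher, where it calls 2.37% of 25700 genes lower and 0.883% higher. DESeq2 on the recovered reads called 5 lower and none higher (3.72 and 1.8% of genes), and edgeR 1 lower and none higher (0.736 and 0.19%). The DESeq2 fit used the same reads as the authors' comparison and gave nearly the same log2 fold changes (for Itga1 -1.553, against -1.554 in theirs). It is therefore not independent of the authors' result.

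**Figure D1:**
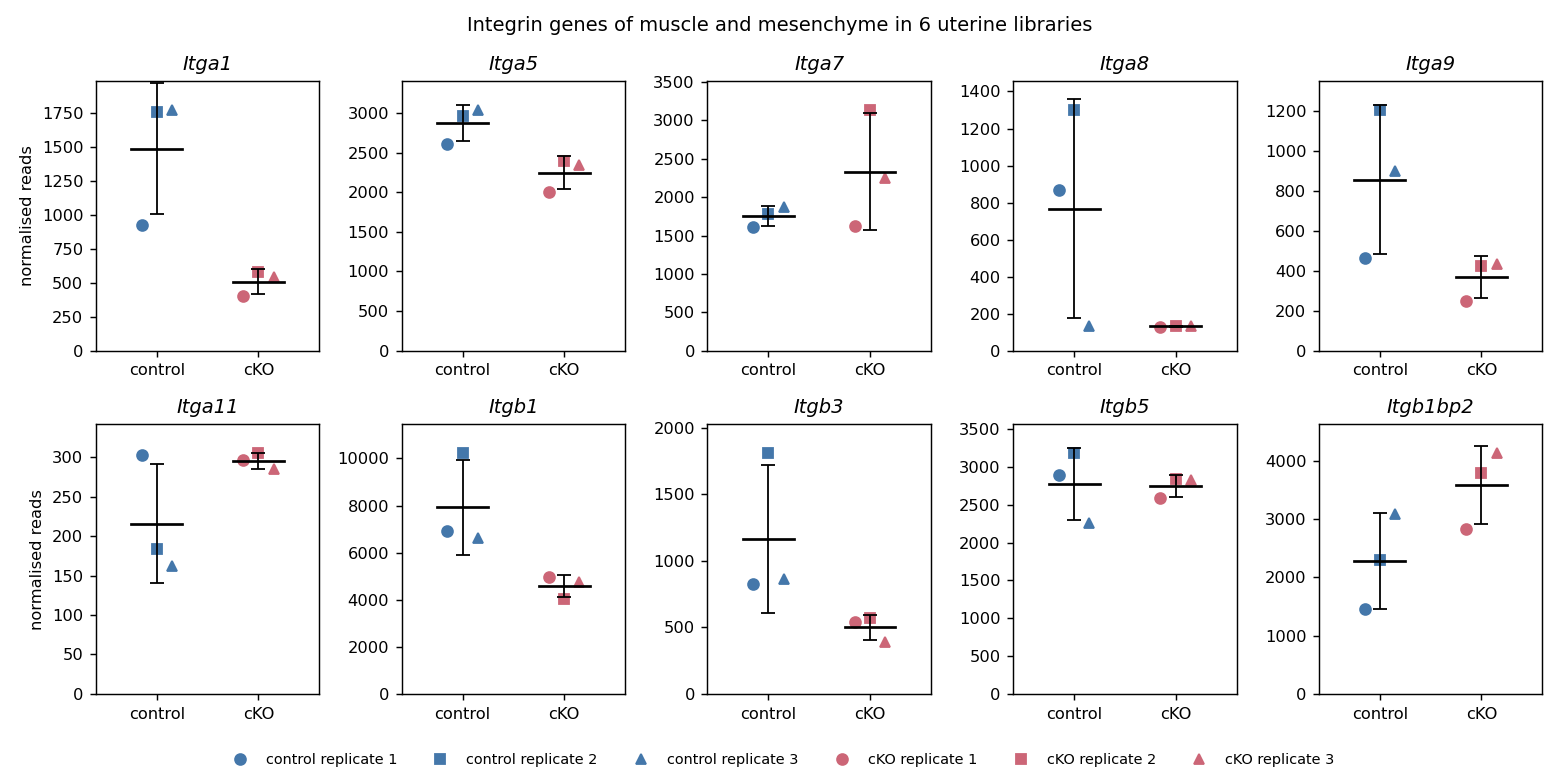
Normalised reads (vertical axes, linear and starting at 0) of the 10 integrin genes in 3 control and 3 cKO libraries; symbols mark the replicate, horizontal lines the group mean and bars 1 standard deviation. Itga1, Itga5, Itga9, Itgb1 and Itgb3 have no overlap between groups, and control replicate 3 lies at the cKO level for Itga8.

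The collagen receptor gene Itga1 (ENSMUSG00000042284) lies on the minus strand of chromosome 13 at 114953096 to 115101964 (GRCm38). It was at 928, 1759 and 1772 normalised reads in control replicates 1 to 3 and at 402, 577 and 540.3 in the cKO replicates. The highest cKO library was below the lowest control, and the cKO mean was 34.1% of the control mean. The means were 1486 ± 484 (SD, n = 3) and 507 ± 92.2, with a log2 fold change of -1.51 ± 0.27 (SE), a 95% confidence interval of -2.12 to -0.90 and a limma adjusted p of 0.0379. The call was lost without control replicate 2 or 3 and without cKO replicate 1, 2 or 3 (log2 fold changes -1.36, -1.35, -1.35, -1.61 and -1.56, limma adjusted p 0.0802, 0.0657, 0.140, 0.158 and 0.171), with total read scaling (0.0848) and with limma-voom (0.0566). It was kept without control replicate 1 (log2 fold change -1.82, limma adjusted p = 0.00216) and with edgeR (adjusted p = 0.0431). Exons of Gm49395 on the same strand cover 3.68% of its exon bases, and no source used here says how reads there were assigned.

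The other collagen-binding subunit gene, Itga11 (ENSMUSG00000032243, chromosome 9, 62677826 to 62783982, plus strand), which is characteristic of fibroblasts, did not share the direction of Itga1. Its values were 302, 183 and 162 in controls, against 296, 305 and 285 in the knockouts. Control replicate 1 lay among the cKO libraries, and the other controls lay below them. On the log2 scale the knockouts differed by 0.51 ± 0.26 (SE, 3 animals per group; limma adjusted p = 0.439), 0.33 without control replicate 3 and 0.77 without control replicate 1. The 10 fibroblast genes took 0.736 to 0.969% of reads in controls and 0.829 to 1.08% in cKO libraries, and limma called none of them.

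Itga8 (ENSMUSG00000026768, chromosome 2, 12106632 to 12301922, minus strand) encodes the subunit of the nephronectin receptor that smooth muscle and urogenital mesenchyme express. Control replicates 1 to 3 held 869, 1300.5 and 133 normalised reads of it, and the cKO replicates 127, 136 and 131. The cKO libraries differed by few reads, and control replicate 3 lay within their range, so the groups overlap. The mean was 767 ± 591 (SD, n = 3) in controls and 131 ± 4.12 in the knockouts, and the log2 fold change was -2.01 ± 0.84 (SE), with a 95% confidence interval of -4.06 to 0.04 and a limma adjusted p of 0.375. Without control replicate 3 it was -3.01 (limma adjusted p = 0.00165), and without control replicates 1 or 2 it was -1.65 and -1.36 with no call. In control replicate 3, uterine mesenchyme genes took 0.0212% of reads, against 0.0490 and 0.0408% in control replicates 1 and 2 and 0.00859 to 0.0154% in cKO libraries, with reads of all 8 genes in every library. The smooth muscle share of that library, 1.73%, was close to the 1.77% of control replicate 2. The part of these shares in the Itga8 values was not tested. Exons of E030013I19Rik on the opposite strand cover 5.05% of Itga8, and no source used here says that strand was used in counting.

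Itga9 (ENSMUSG00000039115, chromosome 9, 118606690 to 118901003, plus strand), a subunit that binds tenascin-C, was at 466, 1205 and 898 in the 3 controls and, in the knockouts, 249.96, 423 and 436. The groups were separated by a narrow gap, between control replicate 1 and cKO replicate 3. On the log2 scale the knockouts differed by -1.15 ± 0.37 (SE, 3 animals per group) with a limma adjusted p of 0.219. Leaving out control replicate 1 gave a call (-1.53, limma adjusted p = 0.0242). The gene of its ligand, Tnc, had a log2 fold change of -0.49 with overlapping groups (limma adjusted p = 0.767).

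Itga5 (ENSMUSG00000000555, chromosome 15, 103344286 to 103366763, minus strand), the fibronectin receptor subunit, was at 2610.4, 2960.4 and 3037 in controls, and the knockouts held 2003, 2393 and 2347. Every cKO library was below every control, but the cKO mean was 78.3% of the control mean. On the log2 scale the knockouts differed by -0.35 ± 0.16 (SE, 3 animals per group; limma adjusted p = 0.364). The fibronectin gene Fn1 was at 9511, 16863 and 5414 in controls, against 5349, 6288 and 11433 in the knockouts.

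Itga7 (ENSMUSG00000025348, chromosome 10, 128933818 to 128958282, plus strand), the laminin receptor subunit of skeletal and smooth muscle, was at 1616, 1784 and 1867 in the 3 controls and, in the knockouts, 1618, 3135 and 2244. Replicate 1 of the cKO group lay among the controls and the other cKO libraries lay above them. On the log2 scale the knockouts differed by 0.36 ± 0.23 (SE, 3 animals per group; limma adjusted p = 0.55), 0.12 without cKO replicate 2 and 0.60 without cKO replicate 1. The melusin gene Itgb1bp2 (ENSMUSG00000031312, X chromosome, 101449088 to 101453541, plus strand) was at 1449.7, 2304 and 3082 in controls, and the knockouts held 2830.4, 3793 and 4129. Control replicate 3 was above cKO replicate 1, and the log2 fold change was 0.70 ± 0.28 (SE; limma adjusted p = 0.309), from 0.41 without control replicate 1 to 0.95 without control replicate 3.

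Both genes are also expressed in skeletal muscle, whose 12 tested list members were all higher in the cKO mean (median log2 fold change 0.92). Limma called none of the 12 (0.276% of all genes higher), and 10 were higher at an unadjusted p under 0.05 (6.11%). DESeq2 called 7 (1.8% of its genes higher), and the authors' deposited table lists 9 as higher (0.883% of its genes). Per 1000 reads of the 13 skeletal muscle genes, Itgb1bp2 was at 2.60, 2.58 and 5.12 in controls, against 2.83, 2.64 and 2.89 in the knockouts. On that scale 5 of the 6 libraries lay close together and control replicate 3 stood apart. Itga7 on the same scale was at 2.89, 1.99 and 3.10 in the 3 controls and, in the knockouts, 1.62, 2.18 and 1.57, with overlapping groups. The part of the skeletal muscle reads in the levels of these genes was not tested.

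The common partner gene Itgb1 (ENSMUSG00000025809, chromosome 8, 128685654 to 128733200, plus strand) was at 6912, 10226 and 6615 in controls, and the knockouts held 4953, 4048 and 4747. The groups did not overlap, and the cKO mean was 57.9% of the control mean. On the log2 scale the knockouts differed by -0.77 ± 0.21 (SE, 3 animals per group) with a limma adjusted p of 0.145. Itgb3 (ENSMUSG00000020689, chromosome 11, 104608000 to 104670476, plus strand) pairs with αv, and in platelets with αIIb. It was at 825, 1808 and 864 in controls, against 543, 567 and 393 in the knockouts, again without overlap. Its log2 fold change was -1.14 ± 0.31 (SE; limma adjusted p = 0.152), or -0.77 without control replicate 2, the highest library. The platelet and megakaryocyte genes took 0.00582 to 0.00930% of reads in controls and 0.0118 to 0.0140% in cKO libraries. Their part in the Itgb3 values was not tested.

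Itgb5 (ENSMUSG00000022817, chromosome 16, 33829665 to 33949338, plus strand), another partner of αv, was at 2898, 3184 and 2254 in the 3 controls and, in the knockouts, 2586, 2846 and 2829.7. The cKO libraries all lay within the range of the controls, and the 95% confidence interval of the log2 fold change ran from -0.39 to 0.39. The ratio of Itgb5 to Itgb3 in reads per kilobase was 5.83, 2.92 and 4.33 in controls and 7.91, 8.34 and 11.9 in the Tcf21d/d animals, with no overlap. The αv gene Itgav itself was at 969, 1157 and 804 in controls, against 704, 633 and 757 in the knockouts (log2 fold change -0.47 ± 0.18, SE, limma adjusted p = 0.286).

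**Figure D2:**
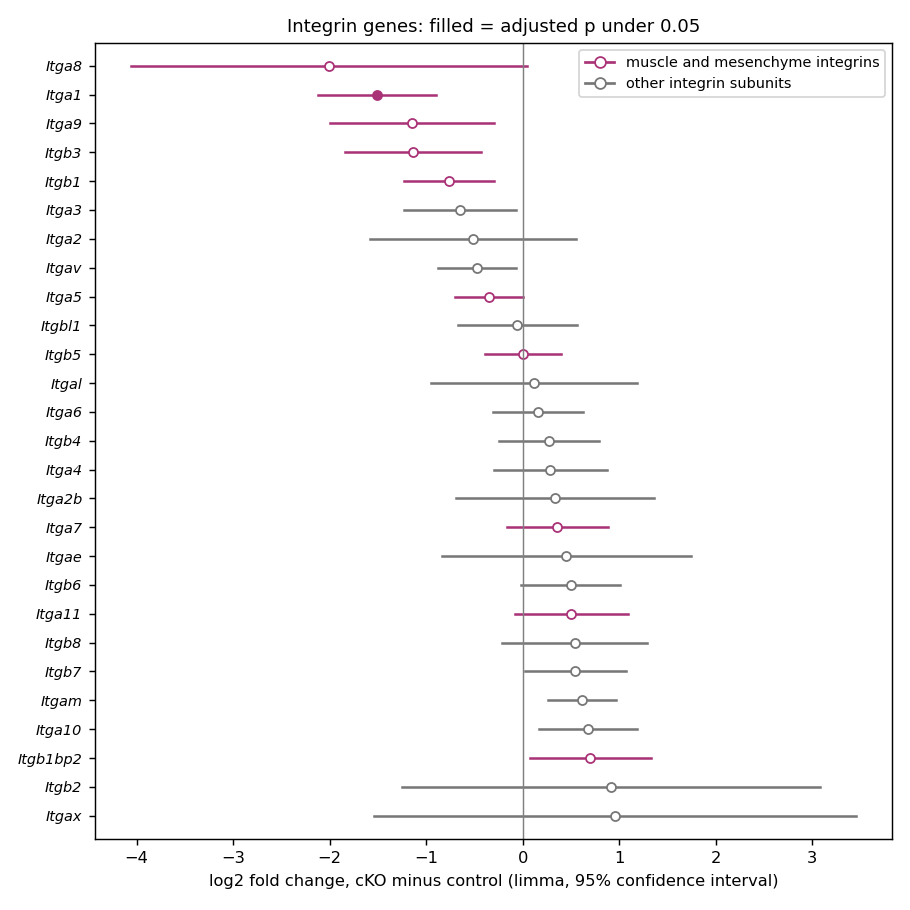
Log2 fold change (cKO minus control, horizontal axis) with 95% confidence interval of the limma fit for the 10 muscle and mesenchyme integrin genes and 17 tested genes listed as other integrin subunits, among them the integrin beta-like gene Itgbl1. The 5 lowest estimates belong to Itga8, Itga1, Itga9, Itgb3 and Itgb1, and Itga1 alone is filled, which marks an adjusted p under 0.05.

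Among the 19 genes listed as other integrin subunits, which include the integrin beta-like gene Itgbl1, 17 were tested and limma called none. At an unadjusted p under 0.05, 2 were lower (7.6% of all genes) and 3 higher (6.11%). DESeq2 called 1 of the 17, where its shares over all its genes were 3.72% for decreases and 1.8% for increases. These 17 genes had a median log2 fold change of 0.33, against -0.56 for the 10 genes described above, and the difference was not tested. The smallest p belonged to Itgam, a subunit of macrophages and neutrophils, at 651 ± 64.6 (SD, n = 3) in controls and 997 ± 74.6 in the knockouts (log2 fold change 0.62, limma adjusted p = 0.117). The 8 macrophage genes took 0.0815 to 0.106% of reads in controls and 0.122 to 0.164% in cKO libraries, and their part in the Itgam values was not tested. The chondrocyte collagen receptor gene Itga10 was at 159 ± 23.9 and 254 ± 30.2 (limma adjusted p = 0.225). Itga3 had a log2 fold change of -0.65, Itgb7 one of 0.55 and Itgb6 one of 0.50, all without a call.

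To compare levels between genes, normalised reads were divided by the gene length in kilobases given in the deposited table. In controls the order on this scale was Itgb1 (1940.1 ± 491, SD, n = 3), Itgb1bp2 (1267 ± 454), Itgb5 (782 ± 134), Itga5 (582 ± 46.1), Itga7 (217 ± 15.9), Itgb3 (198 ± 94.3), Itga9 (111 ± 48.3), Itga8 (104 ± 80.2), Itga1 (79.9 ± 26.0) and Itga11 (42.1 ± 14.7). The ranges of 1 SD around the means did not overlap for the neighbours Itgb5 and Itga5, nor for Itga5 and Itga7, and overlapped for the other neighbours. In the cKO uteri the order was Itgb1bp2 (1992 ± 375), Itgb1 (1123 ± 116), Itgb5 (775 ± 41.0), Itga5 (456 ± 43.2), Itga7 (288 ± 94.2), Itgb3 (84.9 ± 15.9), Itga11 (57.6 ± 1.97), Itga9 (48.1 ± 13.5), Itga1 (27.2 ± 4.96) and Itga8 (17.8 ± 0.559). There the ranges of 1 SD overlapped for Itga11 and Itga9 and for no other neighbours. By the means, Itgb1bp2 stood above Itgb1 in the knockouts and below it in the controls, although it was above Itgb1 in control replicate 3 as well, and Itga11 moved from the last place to above Itga9. The deposited length of Itga1, 18599 bases, covers the exons of all its transcripts. With the longest coding transcript as length, Itga1 (136) stood above Itga8 (132) and Itga9 (122) in controls, and Itga7 (580) above Itga5 (513) in the cKO uteri.

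The mix of alpha subunit transcripts in the bulk tissue was described by shares. The reads per kilobase of each gene were divided by the sum over the 12 alpha genes whose products pair with β1 (Itga1 to Itga11 and Itgav). Itga5 held the largest share in every library with the deposited length, 36.8 to 43.7% in controls and 35.3 to 39.7% in the knockouts. With the longest coding transcript as length, Itga7 was above it in cKO replicates 2 (38.2 against 26.8%) and 3 (32.3 against 31.0%). The sum itself was lower in the knockouts without overlap on the deposited length, at 1427, 1630 and 1410 in controls, against 1051, 1376 and 1197, and overlapped on the other length. The share of Itga7 was 14.0, 13.5 and 16.4% in the 3 controls and, in the knockouts, 19.0, 28.2 and 23.2%, with no overlap, although its reads in cKO replicate 1 (1618) were close to those in control replicate 1 (1616). That of Itga1 was 3.50, 5.80 and 6.76% in controls, and the knockouts held 2.06, 2.26 and 2.43%, also with no overlap. Both groups also stayed apart for Itga1 and Itga7 with the longest coding transcript as length, where Itga7 held 21.3 ± 1.99% (SD, n = 3) in controls and 32.5 ± 5.69% in the knockouts. The share of Itga8 was 8.27, 10.8 and 1.28% in controls, against 1.64, 1.34 and 1.49% in the knockouts, so control replicate 3 lay with the cKO libraries. Itga7 reads per kilobase were 4.002, 2.33 and 2.42 times those of Itga1 in controls and 9.24, 12.5 and 9.55 times in the knockouts. Those of Itga5 were 10.6, 6.35 and 6.46 times those of Itga1 in controls and 18.8, 15.6 and 16.4 times in the knockouts. Both ratios have Itga1 as divisor, whose reads were lower in every cKO library, so they are not a result separate from that decrease. The mean shares of Itga10 (control 2.08%, cKO 4.06%) and Itga11 (control 2.85%, cKO 4.82%) were also higher in the knockouts without overlap. With the longest coding transcript as length, the shares overlapped for Itga11 and not for Itga10. Because the sum was lower in the knockouts, a share can rise without more reads of its gene. The reads of Itga11 overlapped between the groups, and those of Itga10 were higher in every cKO library than in every control. With 3 libraries against 3, an exact permutation test of such values cannot give a two-sided p below 0.10, and none was run.

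**Figure D3:**
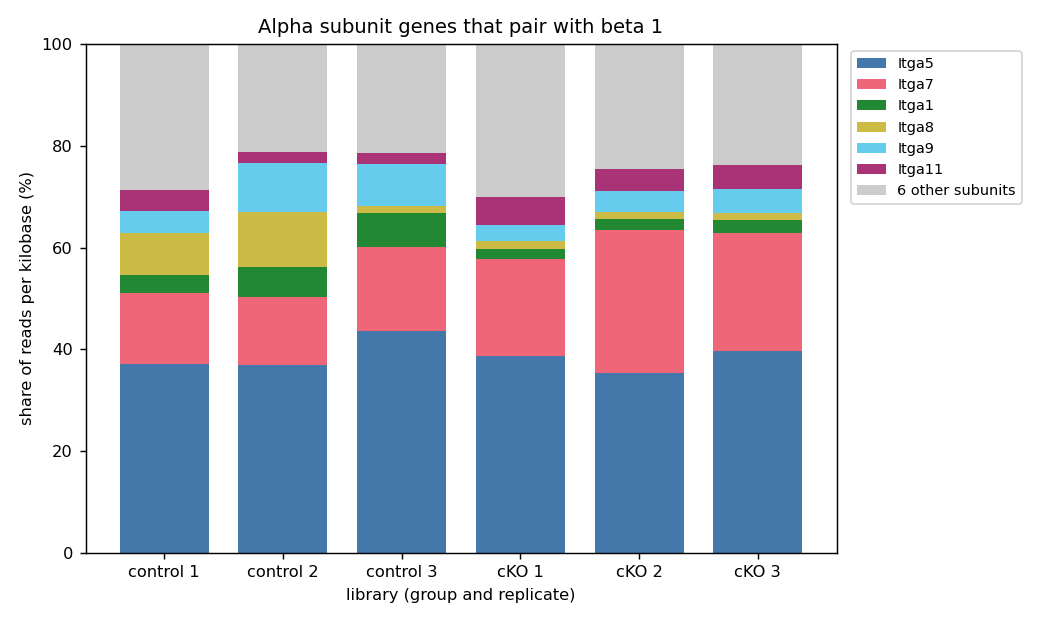
Share of each gene (vertical axis, %) in the summed reads per kilobase of the 12 alpha subunit genes that pair with β1, 1 bar per library. The Itga7 segment is between 13.5 and 16.4% in controls and between 19.0 and 28.2% in cKO libraries, and the Itga1 segment is smaller in every cKO library than in every control.

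Of 39 tested genes for components of integrin adhesions, 6 fell, 33 did not pass and none rose (limma, adjusted over all genes). Of all genes tested, limma called 0.889% lower and 0.276% higher. DESeq2 called 15 of the 39, where it called 3.72% of all its genes lower and 1.8% higher. The authors' deposited table lists 15 of the 39 as lower and 1 as higher, where it calls 2.37 and 0.883% of its genes. The median limma log2 fold change of the 39 was -0.48. All 3 cKO libraries lay below the controls for 19 of the 39 genes and above them for 5, against 10.5 and 9.04% of all genes. Flna, the filamin gene, fell from 24321, 42381 and 36305 in controls to 6850.1, 7590.4 and 6877 in the knockouts, a log2 fold change of -2.24 ± 0.23 (SE, 3 animals per group; limma adjusted p = 0.00367), and it kept the call with each library left out. Of the PINCH and parvin genes, Lims2 fell from 1604 ± 243 (SD) to 626 ± 81.5 and Parva from 2475 ± 146 to 1080.3 ± 127. Their paralogues had other values: Lims1 had a log2 fold change of -0.49 and Parvb one of 0.72, both without a limma call, while Parvb is higher in the authors' deposited table (adjusted p = 0.039). The non-muscle alpha-actinin gene Actn1 (log2 fold change -1.44), Tgfb1i1, which encodes the paxillin relative Hic-5 (-1.66), and Kank2, which encodes a talin-binding protein (-0.89), also fell. With 1 library left out, the log2 fold changes stayed between -1.48 and -1.26 for Lims2, -1.29 and -1.12 for Parva, -1.54 and -1.27 for Actn1, -1.80 and -1.42 for Tgfb1i1, and -0.94 and -0.85 for Kank2. The calls over all genes dropped from 145 lower to between 46 and 70 without 1 cKO library. Among those lost, Lims2 and Parva lost theirs without cKO replicate 1 or 3 (limma adjusted p 0.0595 and 0.0812, and 0.0585 and 0.0845), Actn1 without cKO replicate 1 or 2 (0.0627 and 0.0809), Tgfb1i1 without cKO replicate 2 or 3 (0.0783 and 0.0860), and Kank2 without any 1 of the 3 (0.0871, 0.159 and 0.178).

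None of the genes of talins and kindlins, which switch integrins on, was called by limma. Fermt1, the kindlin gene of epithelia, had the lowest log2 fold change of the adhesion list, -3.94. The authors' deposited table calls it lower (adjusted p = 0.016), and its few reads are given under Other observations. Tln1, the talin gene expressed in most cells, had a log2 fold change of -0.13 ± 0.16 (SE, 3 animals per group; limma adjusted p = 0.790). Tln2, the talin gene of muscle, had one of 0.59 (adjusted p = 0.195) and the kindlin gene Fermt2 one of -0.48 (adjusted p = 0.298). The focal adhesion kinase gene Ptk2 stood at a log2 fold change of -0.23, and the tyrosine kinase gene Src at one of -0.83 (limma adjusted p = 0.0883). The smooth muscle genes, which share several of these adhesion proteins, had a median log2 fold change of -3.50. Limma called 9 of the 12 lower (0.889% of all genes). They took 1.23 to 1.77% of reads in controls and 0.515 to 0.689% in cKO libraries. The part of the smooth muscle content in the adhesion and integrin values was not tested.

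**Figure D4:**
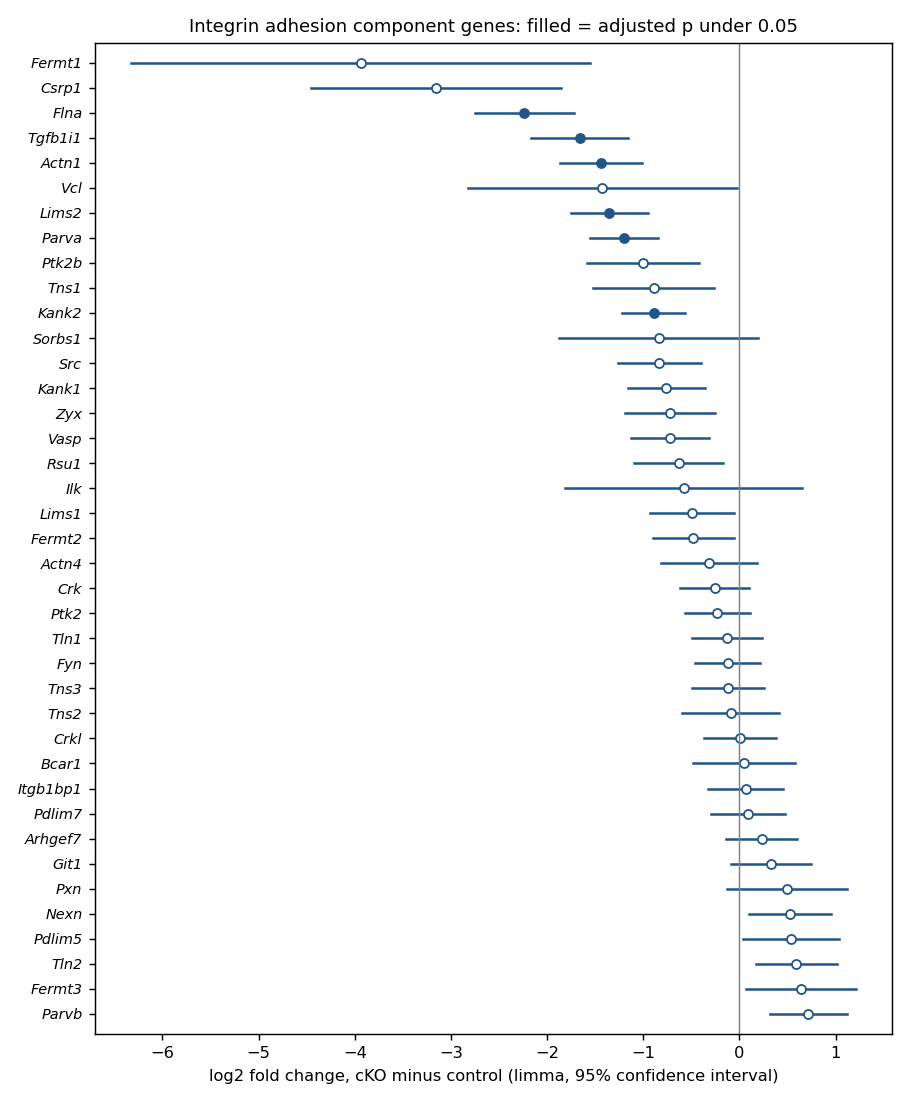
Log2 fold change (cKO minus control, horizontal axis) with 95% confidence interval of the limma fit for 39 genes of integrin adhesions, ordered by size. Filled points mark the 6 genes with an adjusted p under 0.05: Flna, Tgfb1i1, Actn1, Lims2, Parva and Kank2.

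The median log2 fold change of 35 tested genes for integrin ligands was -0.099. Of these, limma called 1 lower and none higher, against 0.889 and 0.276% of all genes. It was Ltbp1, the gene of a latent TGF-beta binding protein, at 2222 ± 494 (SD, n = 3) in controls and 1049 ± 177 in the knockouts (log2 fold change -1.07, limma adjusted p = 0.0446). That call was lost with edgeR (adjusted p = 0.0534), limma-voom (0.0552) and total read scaling (0.0717), without control replicate 2 and without any 1 of the cKO replicates. Its log2 fold change ran from -1.20 to -0.90 with 1 library left out. The nephronectin gene Npnt, which encodes a ligand of α8β1, had a log2 fold change of -0.35 (limma adjusted p = 0.523). The collagen genes Col1a1 and Col3a1 had log2 fold changes of 0.62 and 0.43 with overlapping groups. Of the 35, all 3 cKO libraries lay above the controls for 4 and below them for 2, against 9.04 and 10.5% of all genes. The 4 higher ones were Spp1, Cyr61, Tgfb1 and Nid2, none of them called by limma. Spp1, the gene of osteopontin, a ligand of αv, α8 and α9 integrins, was at 2804 ± 1435 in controls and 6722 ± 2821 in the knockouts (log2 fold change 1.30, limma adjusted p = 0.215). DESeq2 called Spp1 higher (adjusted p = 0.0168), as does the authors' deposited table (adjusted p = 0.00693). Cyr61, which encodes the matricellular protein CCN1, a ligand of αv integrins, had a log2 fold change of 0.55 (limma adjusted p = 0.162, DESeq2 adjusted p = 0.0427). Tgfb1, whose latent form is bound by αv integrins, had one of 0.48 (limma adjusted p = 0.186), and Nid2, which encodes the basement membrane protein nidogen-2, one of 0.72 (limma adjusted p = 0.285). Emilin1, whose product binds α9β1, had a lower mean in the knockouts (log2 fold change -0.65, limma adjusted p = 0.0947, DESeq2 adjusted p = 0.00589). DESeq2 called 4 of the 35 ligand genes, where it called 3.72% of all its genes lower and 1.8% higher. The authors' deposited table lists 2 of the 35 as lower and 1 as higher, where it calls 2.37 and 0.883% of its genes.

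The estimates for the 10 integrin genes moved by different amounts when 1 library was left out. Itga8 ranged most, from -3.01 to -1.36, and Itga5 least, from -0.42 to -0.27. The estimates kept their sign in each of these fits except for Itgb5, which ran from -0.14 to 0.11. A fit without control replicates 1 and 3 together has a single control library, which is assumed to vary as the cKO libraries do. Its log2 fold changes were -1.81 for Itga1, -3.30 for Itga8, -1.75 for Itga9, -1.16 for Itgb1 and -1.87 for Itgb3. For Itga5 and Itgb5 they were -0.40 and -0.21, and for Itga7, Itga11 and Itgb1bp2 0.33, 0.69 and 0.62.

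**Figure D5:**
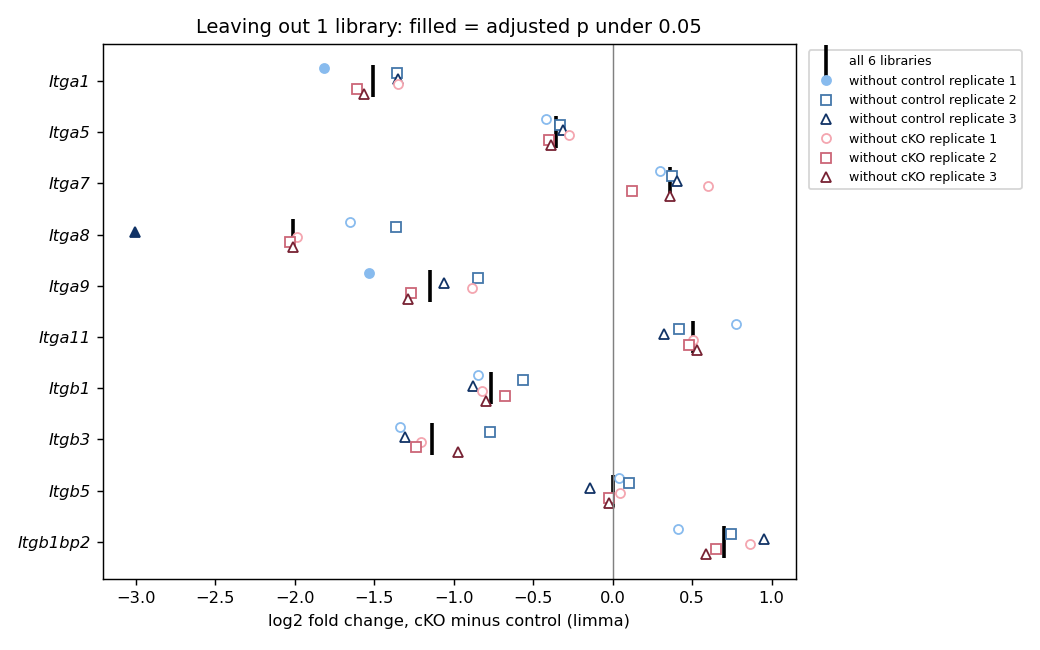
Log2 fold change (cKO minus control, horizontal axis) of the 10 integrin genes in the limma fit to all 6 libraries (black ticks) and with each library left out (symbols). Filled symbols mark an adjusted p under 0.05: Itga1 and Itga9 without control replicate 1, and Itga8 without control replicate 3.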

How the data were processed

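Per the labels' protocols, Trizol was used to isolate uterine RNA, with 1 library per animal. HISAT2, SAMtools and featureCounts are named in the submitters' processing notes, without versions, with GRCm39 as build. Of 25988 genes found in GENCODE vM21 (GRCm38), 25239 lie at the same coordinates as in the deposited table, so positions are given as GRCm38. How strand and multiple matches were treated is not given in these sources.

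The signal values, as deposited, are normalised counts per gene. In every library 100% of them were multiples of a single step, within 0.01 reads, so each library's values are whole reads times 1 size factor of the authors, and the reads were recovered. The authors' deposited log2 fold changes and their p-values (missing for 318 genes) are quoted as theirs, and no source used here names the tool behind them.

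Genes passing edgeR's filterByExpr (16314 of 26018) were tested on the log2(value + 1) scale with limma 3.58.1 (R 4.3.3; trend and robust options of eBayes), 3 cKO against 3 control libraries, with Benjamini-Hochberg adjustment over all genes at 0.05. Fold changes are on that log2(value + 1) scale. P-values measure the spread between these animals. The alternatives used edgeR 4.0.16 and DESeq2 1.42.0 on the recovered reads, limma-voom, other scalings, filters and pseudocounts (0.5 and 5), a replicate block and left-out libraries. The use of another gene length and of the authors' comparison was chosen after seeing the data. The fit was tested on simulated data. Values at 0 reads are given an upper limit of 3 reads, which covers counting error only.

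The 10 members and the lists were chosen with earlier results of these data known. The named genes are Tcf21, all members and, of the 3 lists of other integrin subunits, ligands and adhesion components, the 6 with the smallest p. Further genes of these lists were named after their values were seen, for their role as ligand, activator or paralogue. Near-identical transcripts of other genes (blastn, at least 95% identity over 100 bases) were found for Itga1, Itga8 and Itgb5, 1 gene each, with matches of up to 451 bases. Symbols Ccn1, Ccn2, Hic5 and Gp1bb on the lists matched no row, and the first 3 stand there under older or other symbols.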

Additional observations from a re-analysis of the deposited data

How the results depend on the processing

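The number of genes called lower and higher was 578 and 280 with DESeq2, 82 and 19 with limma-voom, 119 and 12 with total read scaling, 200 and 82 without a filter and 465 and 254 without control replicates 1 and 3, against 145 and 45 in the main test, and 46 to 277 and 1 to 92 with 1 library left out. Members called lower numbered 5 with DESeq2, in the authors' deposited comparison and without control replicates 1 and 3, 0 with limma-voom and with total read scaling, 2 with the replicate block, and 0 to 2 with 1 library left out, against 1. No alternative called a member higher. Genes of the 3 pathway lists called lower and higher numbered 16 and 4 with DESeq2, 18 and 4 without control replicates 1 and 3, and 2 to 10 and 0 to 2 with 1 library left out, against 7 and 0. The labels do not say that the same replicate numbers in both groups pair the animals. Deviations from the group means had correlations of 0.0084, -0.18 and 0.044 for numbers 1 to 3. With 3 libraries per group, these values cannot show whether animals were paired. With that replicate block, 149 genes were lower and 34 higher, and Itga9 passed in addition to Itga1 (limma adjusted p 0.0373 and 0.00783), while Ltbp1 and Kank2 did not pass (0.0588 and 0.0510). Itgb5, at 0.00056 in the main test, was on the other side of 0 with TMM scaling (-0.0048), total read scaling (-0.031), edgeR (-0.017), DESeq2 (-0.012), limma-voom (-0.0051) and without control replicates 1 and 3 (-0.21), and ran from -0.14 to 0.11 with 1 library left out. The cause of these changes was not tested. The other scalings moved the median of all genes by at most 0.032 on the log2 scale. Each of the 10 genes had at least 119 reads in every library.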

Other observations

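The leukocyte integrin genes Itgax and Itgb2, which encode partners in the same receptor of dendritic cells and macrophages, varied widely between libraries. Itgax was at 212, 2588 and 259.8 normalised reads in control replicates 1 to 3 and at 1200, 701 and 1249 in the cKO replicates, and Itgb2 was at 430.4, 3230.0 and 376 and at 1637, 1117 and 1925. Control replicate 2 was the highest library for both, and control replicates 1 and 3 were the lowest. The macrophage gene Cd68, at 562, 2320.5 and 350.5 in controls, was also highest in control replicate 2, while Itgam, at 684, 577 and 693, was lowest there. Fermt1, the kindlin gene of epithelia, was at 24.4, 10.8 and 22.2 in the 3 controls and, in the knockouts, 0.93, 0 and 0 (limma adjusted p = 0.141), and the authors' deposited table calls it lower (adjusted p = 0.016). The epithelial marker share of control replicate 3, 0.00598%, lay within the range of the cKO libraries, 0.00412 to 0.00962%, and its Fermt1 value lay above theirs. The part of the epithelial content in the Fermt1 values was not tested.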
